A study of Homo sapiens with 9 samples.

Results

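Hematopoietic cytokine receptors were examined in SET2, a *JAK2* mutant megakaryoblastic leukemia line, as 9 genes chosen by symbol from the 60617 genes of the deposited table. The members were *EPOR*, *CSF3R*, *LEPR*, *CSF2RB*, *IL6R*, *IL6ST*, *IL4R*, *IL7R* and *IL10RA*. Bulk RNA-seq covered parental WT cells and the *DYRK1A* KO clones 11H1 and 14B5, all untreated, with 3 libraries each. Each clone was expanded from 1 cell sorted after nucleofection of a Cas9 ribonucleoprotein and was kept for out-of-frame indels. Libraries of a clone are therefore replicates of that clone alone, and no clone of unedited SET2 cells was sequenced, so editing and cloning cannot be told apart. The paper counts 5 KO libraries and 6 were deposited, all of which were used here. The paper's methods name a stranded mRNA kit, and the sample labels name a different one.

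Cytokine receptors of this family have no kinase of their own and carry a JAK kinase on the part of the chain inside the cell. Binding of a cytokine brings the chains together, the JAKs phosphorylate each other and the receptor, and STAT factors are recruited and activated. EPOR, CSF3R and LEPR work as pairs of one chain, whereas the others combine a ligand-binding chain with a shared signaling chain, and mutant JAK2 in myeloproliferative neoplasms signals through such paired receptors at the cell surface.

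The depth was 32347779 to 60272245 expected counts per library. Levels are given as CPM (normalised read counts, on library sizes scaled by TMM), and between genes as CPM per kb of annotated exon. A count of 0 allows up to 3 counts, which is 0.0502 to 0.0913 CPM depending on the library, and this limit covers counting error only. The labels call the cells hematopoietic, post MPN AML. In WT, 11 of 14 megakaryocyte markers were at 1 CPM or more, with *ITGA2B* at 911 to 927 CPM. Of 7 monocyte markers 2 were at 1 CPM or more in WT, *LYZ* at 194.6 to 198 CPM and *VCAN* at 2.68 to 4.11 CPM, and *CD14* reached at most 0.122 CPM in any library. *DYRK1A*, the targeted gene, was at 196 to 218 CPM in WT, 188 to 192 CPM in 11H1 and 174 to 191 CPM in 14B5. Its log2 fold change in KO versus WT was −0.13 (SE 0.06, adjusted p = 0.125, edgeR quasi-likelihood test), and counts per gene do not show the reading frame. For the protein, the paper reports that western blots verified *DYRK1A* knockout and knockdown in its HEL and SET2 cells. In these bulk samples, fewer cells that express a gene and less RNA of it per cell cannot be told apart.

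SET2 expressed 7 of the 9 receptors at 1 CPM or more in every group. In WT, *CSF2RB* had the highest level, 168 ± 6.44 CPM per kb (SD, n = 3), followed by *EPOR* at 16.1 ± 1.22 and *LEPR* at 8.52 ± 0.956. *IL4R* (7.08 ± 0.344 CPM per kb), *IL6ST* (3.56 ± 0.447), *IL6R* (2.03 ± 0.232) and *CSF3R* (0.316 ± 0.0163) completed the order, and no library of one gene overlapped with the next gene in WT. *CSF2RB*, the signaling chain shared by the receptors for GM-CSF, IL-3 and IL-5, lay above 98.7% of the 13491 protein-coding genes that were compared per length. *EPOR* lay above 78.5% of them and *CSF3R* above 12.5%. *CSF2RB* made up 81.7% ± 0.461 (SD, n = 3) of the summed level of the 9 receptors in WT, 71.7% ± 0.328 in 11H1 and 72.2% ± 1.32 in 14B5, while *EPOR* made up 7.84% ± 0.52, 18.4% ± 0.545 and 14.5% ± 1.01. The order of these 7 by mean was the same in both clones, but in 11H1 the libraries of *IL4R* (4.88 ± 0.176 CPM per kb) and *IL6ST* (4.79 ± 0.189) overlapped.

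**Figure D1:**
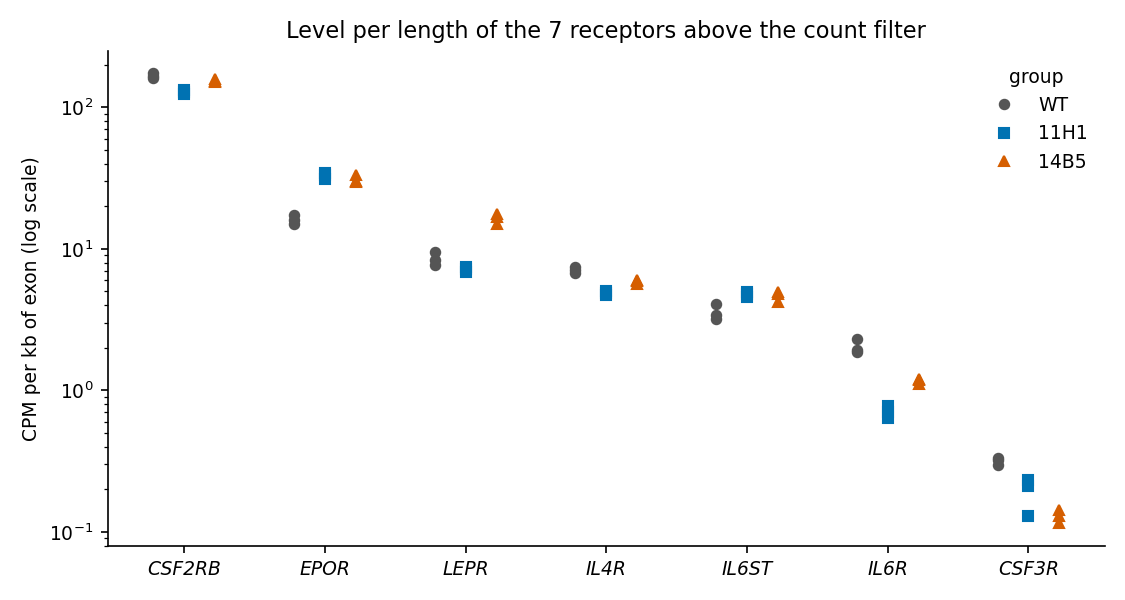
Level of the 7 receptors at 1 CPM or more as CPM per kb of exon on a log axis, with 1 point per library and the 3 groups side by side. CSF2RB is highest in all groups (168, 128 and 154 CPM per kb on average in WT, 11H1 and 14B5), EPOR moves from 16.1 to 33.1 and 31.0, and CSF3R is lowest of the 7.

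*IL7R*, the binding chain for IL-7, and *IL10RA*, the binding chain for IL-10, were close to absent. *IL7R* had 3, 3 and 2 counts in WT libraries 1 to 3, 1, 0 and 1 in 11H1 and 0 in each 14B5 library. *IL10RA* had 3 counts in WT library 2 and 0 in all others. Neither passed the filter on low counts or reached more than 3 counts in a library, so no fold change is given for either and a difference was not detectable at this depth.

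Among the 7 receptors tested in KO (both clones, n = 6) versus WT, 5 passed the threshold of 0.05 on the adjusted p value. *EPOR* and *IL6ST* rose (2 of 7) and *CSF3R*, *IL6R* and *IL4R* fell (3 of 7). Of the 17063 genes tested, 32.1% passed, 14.4% as higher and 17.7% as lower. The median log2 fold change of the 7 receptors was −0.25, against 0.02 for all genes. KO and WT libraries did not overlap for 6 of the 7 receptors, all but *LEPR*, against 36.6% of all genes. In 2-sided exact permutation tests on CPM, the 5 receptors past the threshold each gave p = 0.0119, the smallest that 6 libraries against 3 allow, *CSF2RB* gave p = 0.0238 and *LEPR* p = 0.452 (7 genes, unadjusted). These tests and the edgeR fit of KO treat the 6 KO libraries as independent, although they come from 2 clones. Neither therefore tests the knockout over independent clones.

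Set against WT singly, every one of the 7 tested receptors passed the threshold in each clone. In 11H1, 2 were higher and 5 lower, where 64.6% of the 16658 genes tested passed, 31.8% as higher and 32.8% as lower. In 14B5, 3 were higher and 4 lower, where 53.5% of the 16520 genes tested passed, 24.9% as higher and 28.7% as lower. Both comparisons used the same WT libraries. Tested directly, the clones differed for 5 of the 7 receptors, 1 higher and 4 lower in 11H1 than in 14B5. Among the 16335 genes tested between the clones, 63.7% passed, 31.4% as higher and 32.3% as lower in 11H1. An exact permutation of 3 libraries against 3 cannot go below p = 0.1, so single clones are given by edgeR alone.

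**Figure D2:**
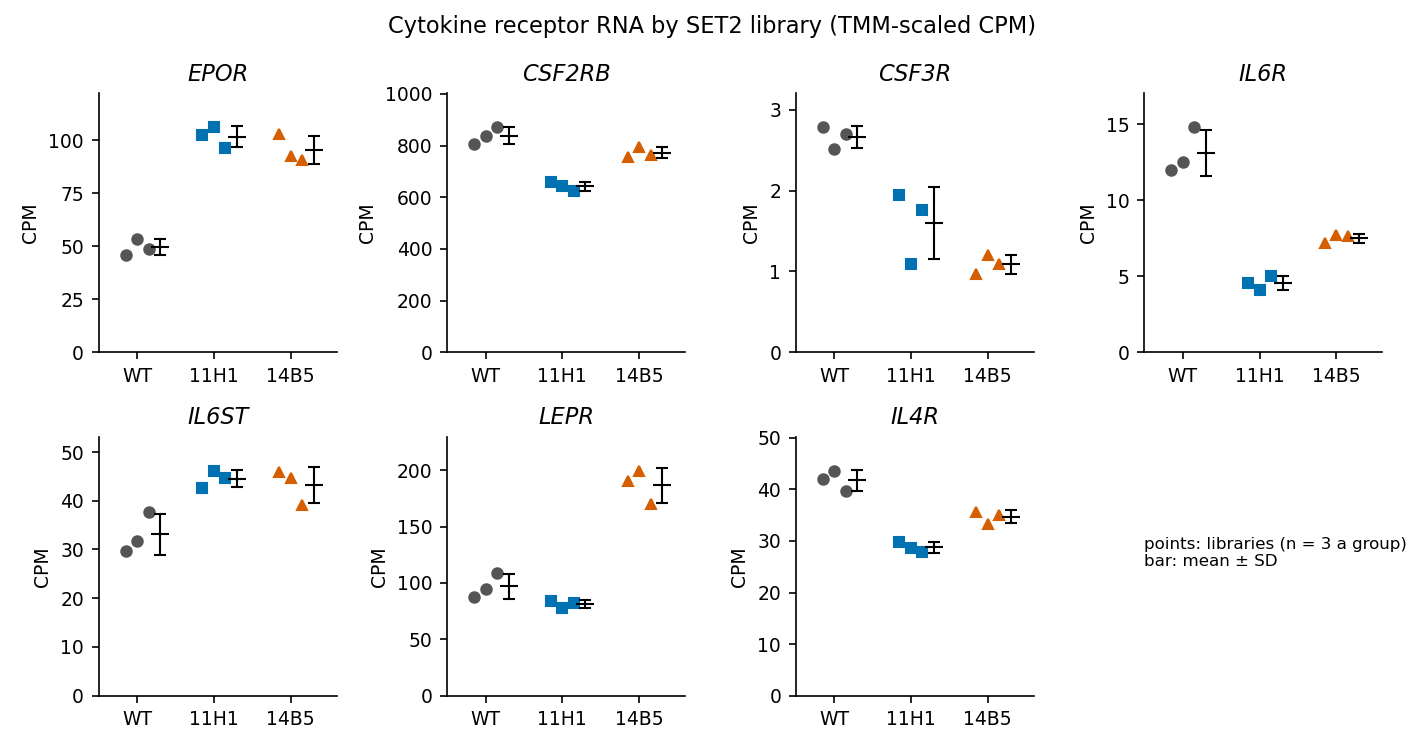
CPM of the 7 expressed receptors in each library (points) by group, with the mean and SD beside them (n = 3 libraries a group) and axes from 0. EPOR is at 90.9 to 106 CPM in all KO libraries against 46.1 to 53.6 in WT, and LEPR is at 170 to 200 CPM in 14B5 only.

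Of the receptors that work as pairs of one chain, *EPOR*, the erythropoietin receptor, rose in both clones. *EPOR* (ENSG00000187266.14) lies on chromosome 19 of GRCh38 from 11377205 to 11384342, minus strand. Its level was 46.1, 53.6 and 49.0 CPM in WT (libraries 1 to 3, in this order throughout), and 103, 106 and 96.4 in 11H1 and 103, 92.8 and 90.9 in 14B5. All 6 KO libraries lay above all WT libraries, and the clones overlapped. The log2 fold change was 0.99 (SE 0.07) in KO versus WT, 1.99-fold, with an adjusted p of 8.65e-06 in edgeR. It was 1.04 in 11H1 (adjusted p = 4.01e-08) and 0.93 in 14B5 (adjusted p = 2.14e-06) against WT. Between 11H1 and 14B5 the difference was 0.10 (95% interval −0.02 to 0.22, adjusted p = 0.147 in edgeR), which became 0.15 (adjusted p = 0.0266) without 14B5 library 1. The 260 tested genes that start within 5 Mb of *EPOR* had a median log2 fold change of 0.11 in KO versus WT.

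The *EPOR* promoter is shown because *EPOR* had the largest rise of the 7 receptors in KO versus WT. *GATA1*, the erythroid and megakaryocyte factor that binds GATA motifs, was at 266 to 279 CPM in WT. In 11H1 it was lower, at 223 to 255 CPM, and in 14B5 it was at 274 to 293 CPM, overlapping WT. Its part in the *EPOR* rise was not tested. The window runs from 250 bases before to 50 after the start site (RefSeq, GRCh38.p14, chr19:11384265-11384564, minus strand), written 5′ to 3′ with the match to AGATAA in capitals, here on the opposite strand.
EPOR: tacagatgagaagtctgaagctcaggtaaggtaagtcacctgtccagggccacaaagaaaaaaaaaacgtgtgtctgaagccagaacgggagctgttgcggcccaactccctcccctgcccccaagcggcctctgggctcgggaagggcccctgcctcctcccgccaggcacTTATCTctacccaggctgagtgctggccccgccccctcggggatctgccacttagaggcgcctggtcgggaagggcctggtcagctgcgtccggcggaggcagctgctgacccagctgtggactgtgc
The match begins 78 bases before the start site. Both strands were searched for AGATAA, which 10.4% of 34943 promoter windows of 300 bases hold, and for the STAT core TTCNNNGAA, which 7.66% hold. Windows were at hand for 8 of the 9 receptors. AGATAA was found in those of *EPOR*, *IL7R* and *IL10RA*, and TTCNNNGAA in none. *IL7R*, with the same motif at chr5:35856641-35856940, plus strand, is shown as the contrast in level, since it had at most 3 counts in any library.
IL7R: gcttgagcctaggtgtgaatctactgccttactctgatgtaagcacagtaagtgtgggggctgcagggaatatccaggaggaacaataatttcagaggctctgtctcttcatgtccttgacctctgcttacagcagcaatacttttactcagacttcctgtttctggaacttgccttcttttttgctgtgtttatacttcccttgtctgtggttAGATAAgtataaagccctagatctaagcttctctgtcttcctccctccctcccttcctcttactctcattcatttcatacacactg
These matches are descriptions of letters, not of binding.

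*CSF3R*, the G-CSF receptor of the granulocyte lineage, was the lowest of the tested receptors and was lower in both clones. *CSF3R* (ENSG00000119535.17) lies on chromosome 1 from 36466043 to 36483278, minus strand. It was at 2.79, 2.52 and 2.70 CPM in WT, at 1.94, 1.10 and 1.76 in 11H1 and 0.970, 1.20 and 1.10 in 14B5, from 36 to 137 counts per library. No KO library reached WT, and 11H1 library 2 lay among the 14B5 libraries. The log2 fold change was −0.99 (SE 0.23, adjusted p = 0.00908 in edgeR) in KO versus WT, −0.70 (adjusted p = 0.00606) in 11H1 and −1.30 (adjusted p = 3.2e-05) in 14B5. The difference of 0.57 between 11H1 and 14B5 (adjusted p = 0.0406 in edgeR) lost its call without 11H1 library 1 (0.39, adjusted p = 0.193), without 11H1 library 3 (0.51, 0.112), without 14B5 library 1 (0.49, 0.0941) and without 14B5 library 3 (0.57, 0.0595).

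*LEPR*, the leptin receptor, went in opposite directions in the clones. *LEPR* (ENSG00000116678.19) lies on chromosome 1 from 65420652 to 65641559, plus strand. It was at 87.2, 94.8 and 109 CPM in WT, at 84.2, 77.9 and 82.0 in 11H1 and 190, 200 and 170 in 14B5. Each 14B5 library exceeded each WT library, and each 11H1 library lay below WT. The log2 fold change was 0.93 (SE 0.08, adjusted p = 8.91e-06 in edgeR) in 14B5 and −0.24 (SE 0.07, adjusted p = 0.00958) in 11H1 against WT. Directly compared, 11H1 was lower than 14B5 by a log2 fold change of −1.19 (SE 0.06, adjusted p = 2.82e-08 in edgeR). Pooling the clones gave 0.47 (SE 0.34, adjusted p = 0.324), and a fit of 3 groups gave 0.35 (adjusted p = 0.000642).

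*LEPR* shares its first exons with *LEPROT*, the leptin receptor overlapping transcript, which codes for a separate protein. In GENCODE v29, 165 bases of *LEPR* exon (1.45%) are also *LEPROT* exon on the same strand, and RSEM divided reads of that stretch. *LEPROT* was at 112, 114 and 121 CPM in WT, at 110, 107 and 108 in 11H1 and 142, 142 and 137 in 14B5. It rose in 14B5 against WT (log2 fold change 0.26, adjusted p = 0.000994 in edgeR) and was at −0.09 in 11H1 (adjusted p = 0.121). With *LEPR* and *LEPROT* summed as 1 gene, the log2 fold change was 0.61 in 14B5 (adjusted p = 2.64e-05) and −0.16 in 11H1 (adjusted p = 0.0262) against WT, and −0.78 between the clones. The ratio of *LEPR* to *LEPROT* per kb within a library was 0.358 to 0.413 in WT, 0.335 to 0.352 in 11H1 and 0.572 to 0.646 in 14B5. The shared promoter window is shown because both genes start in it (RefSeq, GRCh38.p14, chr1:65420418-65420717, plus strand). It holds neither motif and has no capitals.
LEPR and LEPROT: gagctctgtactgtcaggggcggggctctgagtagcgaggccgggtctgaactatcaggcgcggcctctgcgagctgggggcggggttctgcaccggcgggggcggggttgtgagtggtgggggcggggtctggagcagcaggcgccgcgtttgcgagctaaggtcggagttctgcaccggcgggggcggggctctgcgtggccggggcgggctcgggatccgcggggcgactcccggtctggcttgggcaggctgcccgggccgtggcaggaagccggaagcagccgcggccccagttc

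*CSF2RB* was the receptor with the most RNA and with small differences. *CSF2RB* (ENSG00000100368.14) lies on chromosome 22 from 36913628 to 36940449, plus strand. It was at 806, 837 and 871 CPM in WT, at 658, 645 and 622 in 11H1 and 755, 795 and 765 in 14B5. All 3 groups were separate, with 11H1 lowest. It fell in 11H1 (log2 fold change −0.38, SE 0.05, adjusted p = 2.59e-05 in edgeR) and was lower in 11H1 than in 14B5 (−0.26, adjusted p = 0.000153). In 14B5 versus WT it was −0.14 (SE 0.05, adjusted p = 0.0374 in edgeR), a call that was lost on leaving out any 1 of the 6 libraries (−0.15 to −0.09, adjusted p = 0.0545 to 0.177) and with no filter on low counts (−0.10, adjusted p = 0.213). In KO versus WT it was −0.25 (SE 0.09, adjusted p = 0.0632), and −0.28 (adjusted p = 0.0367) without 14B5 library 2.

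**Figure D3:**
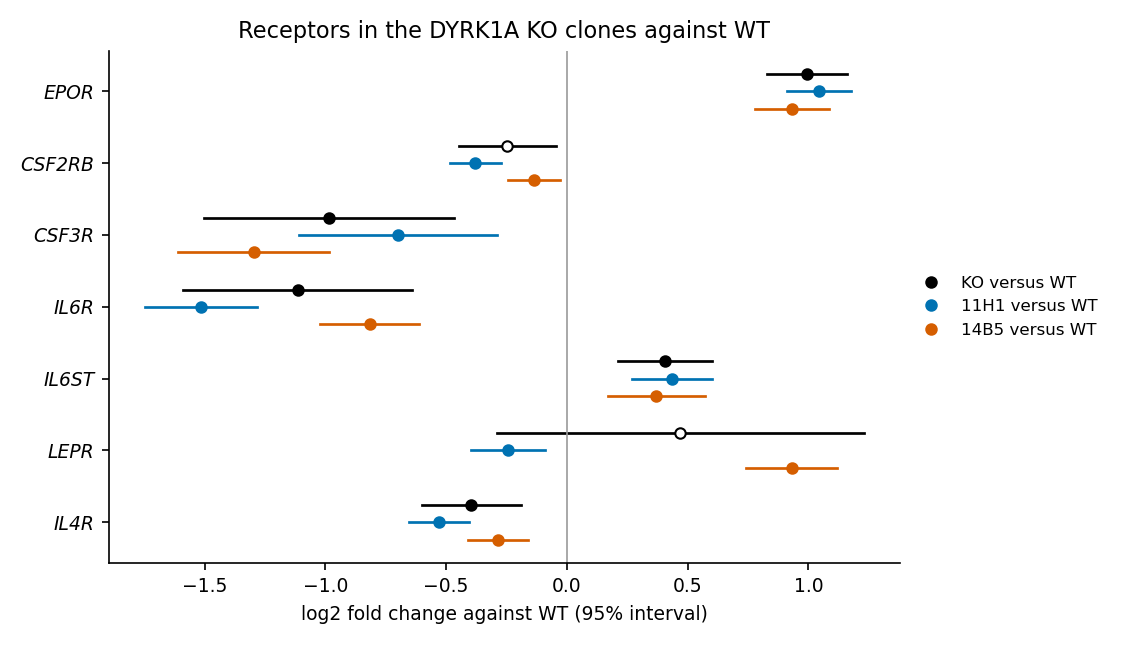
Log2 fold change against WT (points) with 95% intervals (lines) for the 7 tested receptors in KO, 11H1 and 14B5, with filled points for an adjusted p below 0.05 and open points for the others. EPOR and IL6ST lie to the right of 0 in all 3 comparisons, IL6R, CSF3R and IL4R to the left, and LEPR on opposite sides in the clones.

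The ligand-binding and signaling chains of the IL-6 receptor moved apart. *IL6R* (ENSG00000160712.13; chromosome 1, 154405193 to 154469450, plus strand) binds IL-6, and *IL6ST* (ENSG00000134352.20; chromosome 5, 55935095 to 55994993, minus strand) encodes gp130, the signaling chain used by the whole IL-6 family. *IL6R* was at 11.998, 12.5 and 14.8 CPM in WT, at 4.57, 4.08 and 4.99 in 11H1 and 7.15, 7.71 and 7.64 in 14B5. *IL6ST* was at 29.8, 31.8 and 37.7 CPM in WT, at 42.6, 46.2 and 44.7 in 11H1 and 45.8, 44.8 and 39.1 in 14B5. For *IL6R* the 3 groups were separate with 11H1 lowest, and for *IL6ST* the clones overlapped above WT, with WT library 3 close to 14B5 library 3.

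In KO versus WT the log2 fold change of *IL6R* was −1.12 (SE 0.21, adjusted p = 0.00293 in edgeR), or 2.17-fold lower. It was −1.52 (SE 0.11, adjusted p = 1.79e-07) in 11H1 and −0.82 (SE 0.09, adjusted p = 4.24e-05) in 14B5, and 11H1 was lower than 14B5 (−0.72, adjusted p = 4.69e-05). *IL6ST* was at 0.41 (SE 0.09, adjusted p = 0.00551 in edgeR) in KO, 0.43 (adjusted p = 0.000325) in 11H1 and 0.37 (adjusted p = 0.00607) in 14B5. The clones differed by 0.05 for *IL6ST* (95% interval −0.09 to 0.18, adjusted p = 0.531 in edgeR). The 28 tested genes within 5 Mb of *IL6ST* had a median of −0.22 in KO versus WT, and the 208 around *IL6R* one of 0.08. An antisense gene, AC008914.1, covers 8.58% of *IL6ST* exon.

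Ratios within a library are free of differences in depth and are given as a description. *IL6ST* exceeded *IL6R* per kb by 1.72 to 1.77 times in WT, 6.22 to 7.86 times in 11H1 and 3.55 to 4.45 times in 14B5. *CSF2RB* exceeded *EPOR* by 9.62 to 10.9 times in WT, 3.74 to 3.97 times in 11H1 and 4.51 to 5.28 times in 14B5. Neither ratio overlapped between WT and KO libraries, and the clones were separate for both. *CSF2RB* and *EPOR* are not partner chains. For *CSF2RB* and its partner *CSF2RA*, the ratio was 65.9 to 75.8 in WT, 58.5 to 68.2 in 11H1 and 78.3 to 90.4 in 14B5. That ratio overlapped between WT and KO libraries.

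**Figure D4:**
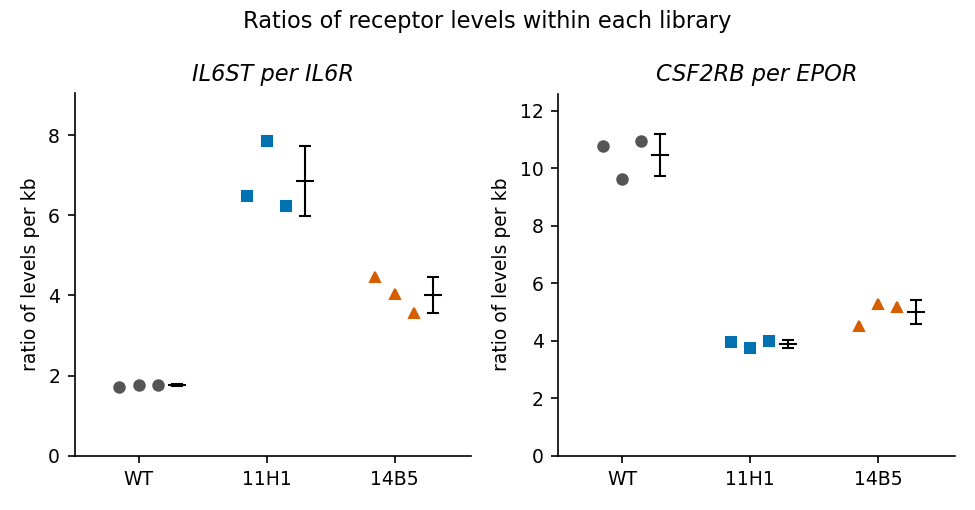
Ratios of levels per kb within each library (points) by group, with the mean and SD (n = 3 libraries a group) and axes from 0. IL6ST per IL6R is 1.72 to 1.77 in WT and at least 3.55 in every KO library, and CSF2RB per EPOR is at least 9.62 in WT and at most 5.28 in KO.

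*IL4R*, the binding chain for IL-4, fell in both clones, and more in 11H1. *IL4R* (ENSG00000077238.14) lies on chromosome 16 from 27313668 to 27364778, plus strand. It was at 42.1, 43.6 and 39.6 CPM in WT, at 29.9, 28.6 and 27.8 in 11H1 and 35.6, 33.3 and 35.1 in 14B5. The 3 groups did not overlap. The log2 fold change was −0.40 (SE 0.09, adjusted p = 0.00842 in edgeR) in KO, −0.53 (adjusted p = 6.38e-06) in 11H1 and −0.28 (adjusted p = 0.00157) in 14B5. Between the clones it was −0.26 (adjusted p = 0.000728 in edgeR). An antisense gene, AC106739.1, covers 5.75% of *IL4R* exon.

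The partner chains of these receptors were taken from a list of 12, of which 8 passed the filter on low counts. In KO versus WT 3 fell and none rose (37.5% past the threshold, against 32.1% of all genes). In 11H1 5 fell and none rose (62.5% against 64.6%), and in 14B5 4 fell and 3 rose (87.5% against 53.5%). The shares in KO and 11H1 were thus near those of all genes. The median log2 fold change of the 8 chains in KO was −0.22, against 0.02 for all genes. All 3 alpha chains that pair with *CSF2RB* fell in both clones. *IL5RA*, the IL-5 binding chain, was at 3.46, 3.08 and 3.33 CPM in WT, 1.05, 0.974 and 1.16 CPM in 11H1 and 1.13, 1.19 and 1.29 CPM in 14B5. Its log2 fold change in KO was −1.54 (SE 0.13, adjusted p = 2.19e-05 in edgeR). *IL3RA*, the IL-3 binding chain, was at 1.13 to 1.42 CPM in WT and 0.542 to 0.748 CPM in KO (−0.96, SE 0.17, adjusted p = 0.00191). *CSF2RA*, the GM-CSF binding chain, was at 8.80 to 9.37 CPM in WT and 6.74 to 8.15 CPM in KO (−0.29, SE 0.09, adjusted p = 0.0278). *IL3RA* and *CSF2RA* lie in the pseudoautosomal region, and the counts of their X and Y copies were summed. Between the clones, these 3 chains differed by at most 0.18 on the log2 scale (*IL5RA* −0.18, adjusted p = 0.406; *CSF2RA* 0.12, 0.236; *IL3RA* 0.05, 0.883, edgeR).

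*IL2RG*, the common gamma chain that joins *IL4R* and *IL7R*, was the most abundant partner at 242 to 266 CPM in WT and had a log2 fold change of 0.02 in KO (95% interval −0.13 to 0.16, adjusted p = 0.86 in edgeR). A share of 50.8% of its exon length is shared with AL590764.2, and 38.1% of *IL10RB* exon with AP000295.1, so counts of both are uncertain. *IL10RB*, the second chain of the IL-10 receptor, was −0.61 in 11H1 (adjusted p = 8.45e-07) and 0.18 in 14B5 (adjusted p = 0.0078), and *IL27RA*, which pairs with gp130, −0.21 (adjusted p = 0.00137) and 0.15 (adjusted p = 0.0278). *IL13RA1*, the alternative partner of *IL4R*, was −0.06 in 11H1 (adjusted p = 0.297) and rose by 0.31 in 14B5 (adjusted p = 0.00031). *IL11RA* was 0.03 in 11H1 (adjusted p = 0.87) and −0.68 in 14B5 (adjusted p = 0.00126). Directly compared, these 4 chains differed between the clones (adjusted p = 8.46e-08 to 0.000964 in edgeR). On the same strand, 7.82% of *IL11RA* exon is shared with *GALT* and 9.6% with AL162231.3. With 100.06 to 219.78 counts per library, the counts of *IL11RA* are uncertain too. *CRLF2*, *LIFR* and *OSMR* were below the filter, at a mean of at most 0.224 CPM in any group, and *CNTFR* had no counts.

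**Figure D5:**
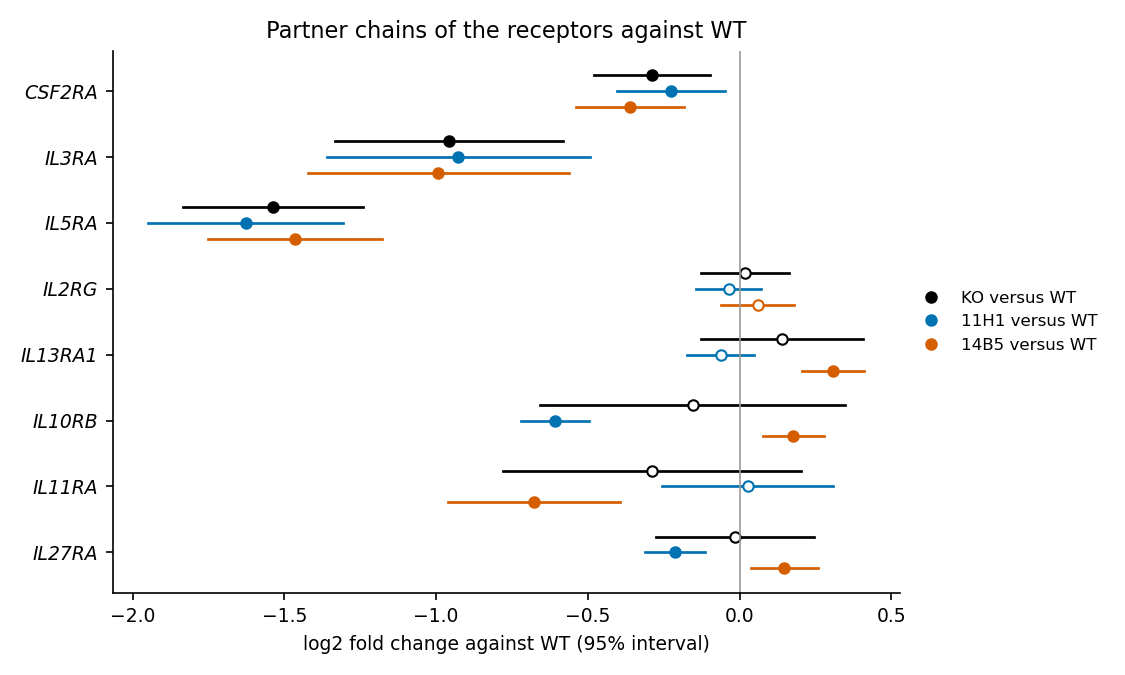
Log2 fold change against WT (points) with 95% intervals (lines) for the 8 tested partner chains in KO, 11H1 and 14B5, with filled points for an adjusted p below 0.05. IL5RA, IL3RA and CSF2RA lie left of 0 in all 3 comparisons, IL10RB and IL27RA on opposite sides in the clones, and IL2RG at 0.02 in KO.

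Over the 44 receptor chains of the 3 lists, 28 had a mean of 1 CPM or more in WT, 26 in 11H1 and 27 in 14B5. Per kb, *CSF2RB* ranked 1 of the 44 in WT and *EPOR* 8. *EPOR* ranked 3 in both clones, behind *CSF2RB* and *IL2RG*. Of the 23 other JAK-coupled receptors, 15 were tested in KO, where 1 rose and 4 fell (33.3% past the threshold, against 32.1% of all genes). In 11H1 3 rose and 11 fell of 14 tested (100% against 64.6%), and in 14B5 3 rose and 4 fell of 15 (46.7% against 53.5%). In KO and 14B5 these shares were near or below those of all genes. *IL21R*, the IL-21 receptor, had the largest fall of those named by rule: 6.12 to 7.51 CPM in WT, 2.13 to 2.52 in 11H1 and 1.17 to 1.48 in 14B5 (log2 fold change −1.95 in KO, SE 0.24, adjusted p = 0.000196 in edgeR). *IL12RB1*, a chain of the IL-12 and IL-23 receptors, followed at −1.57 (adjusted p = 0.000304), and *IFNAR2*, of the type I interferon receptor, at −0.60 (adjusted p = 0.00255). *IL23R* rose by 0.40 (adjusted p = 0.0116). *IL2RB* was −0.49 in 11H1 (adjusted p = 0.00467) and 0.40 in 14B5 (adjusted p = 0.0252).

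Ligands of these receptors were scarce, with 6 of 19 at 1 CPM or more in each group and a summed level of 12.6 to 17.9 CPM over all libraries. *IL3*, *IL5*, *LEP* and *IL27* had no counts in any library. In KO 2 of the 6 tested ligands rose and 2 fell (66.7% past the threshold, against 32.1% of all genes). *OSM*, oncostatin M, which signals through gp130, was at 1.17 to 1.44 CPM in WT, 1.67 to 2.24 in 11H1 and 5.17 to 6.14 in 14B5, and its log2 fold change was 0.59 (adjusted p = 0.0111) in 11H1 and 2.12 (adjusted p = 5.92e-07) in 14B5 by edgeR. *CNTF* rose by 1.28 in 11H1 (adjusted p = 2.74e-05) and 0.89 in 14B5 (adjusted p = 0.00125). Its expected counts were low and not whole in any library (44.45 to 133.84), so RSEM divided some of its reads. Shared exons were not examined for the ligands, and the counts of *CNTF* are uncertain. *LIF* fell by 0.83 in 11H1 (adjusted p = 0.000195) and by 1.69 in 14B5 (adjusted p = 7.3e-06), and *IL7* by 0.99 (adjusted p = 7.2e-06) and 0.46 (adjusted p = 0.00129). Of the 4 JAK kinases, *JAK2* fell by edgeR in both clones, by 0.61 in 11H1 (adjusted p = 7.01e-06) and 0.31 in 14B5 (adjusted p = 0.00287). *JAK3* rose in 11H1 (0.47, adjusted p = 3.22e-06) and fell in 14B5 (−0.25, adjusted p = 0.00176), *TYK2* rose in 11H1 (0.45, adjusted p = 7.88e-06) and was −0.12 in 14B5 (adjusted p = 0.17), and *JAK1* was 0.00 in 11H1 (adjusted p = 0.972) and fell in 14B5 (−0.46, adjusted p = 9.85e-05). All 4 differed between the clones (adjusted p = 1.19e-07 to 0.000798 in edgeR), so the pooled KO values average unlike clones.

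Other measures moved with the groups. The summed level of 14 megakaryocyte markers was 2162 to 2171 CPM in WT, 1737 to 1822 in 11H1 and 1740 to 1791 in 14B5. *ITGA2B* makes up much of that sum. *PF4* was low in WT, at 0.461 to 0.559 CPM, and at 0 in the clones. Of the 13 tested, 9 fell and 1 rose in KO versus WT (median log2 fold change −0.85). Of all genes, 17.7% passed as lower and 14.4% as higher. Of 11 tested between the clones, 8 were higher and 2 lower in 11H1 than in 14B5, against 31.4% and 32.3% of all genes. *TAL1*, a list member named after its values were seen, was higher in every KO library than in any WT library. *GP9*, a platelet glycoprotein gene named here after its values were seen, was at 20.2 to 24.4 CPM in WT, 3.76 to 4.81 in 11H1 and 0.574 to 1.003 in 14B5. The summed erythroid markers were 11890 to 13580 CPM in WT, 10460 to 11430 in 11H1 and 13080 to 14690 in 14B5. Monocyte markers summed to 198 to 201 CPM in WT and 101 to 123 in KO, nearly all of it *LYZ*. B cell markers summed to 40.3 to 47.1 CPM in WT and 23.6 to 32.0 in KO. T cell markers were low, at 1.38 to 1.82 CPM in WT, 3.075 to 4.77 in 11H1 and 0.654 to 0.766 in 14B5. Granulocyte markers summed to 1.63 to 2.01 CPM in WT, 1.095 to 1.265 in 11H1 and 2.17 to 2.41 in 14B5. Stroma markers summed to 2.99 to 3.25 CPM in WT, 2.83 to 2.98 in 11H1 and 0.8875 to 1.32 in 14B5. The share of counts from mitochondrial genes was 3.54% to 6.03% in WT, 7.23% to 7.39% in 11H1 and 3.30% to 3.92% in 14B5. The part of these measures in the receptor differences was not tested.

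The genes most like each receptor across the 9 libraries, by Pearson correlation of log2 CPM over 13559 genes, are given as a description. The libraries form 3 groups, so genes with the same order of group levels reach high values, and 346 to 1063 genes exceeded 0.9 for each receptor. For *EPOR* they were *GLI2* (0.995) and *FGFR1OP* (0.994), for *CSF2RB* *LRP5* (0.993) and *GBE1* (0.991), and for *CSF3R* *MCF2L2* (0.977) and *TCOF1* (0.976). *LEPR* was most like *LEPROT* (0.997), which shares its promoter, and *TSG101* (0.995). *IL6R* was most like *PTPRF* (0.996) and *RNF157* (0.995), *IL6ST* like *C18orf54* (0.991) and *FUBP3* (0.987), and *IL4R* like *KYAT1* (0.991) and *FKBP4* (0.991).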

How the data were processed

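RNA-seq of SET2 was analysed in 9 libraries. For each gene the authors deposited expected counts from RSEM, with no normalization for depth or length. The submitters' processing notes name STAR 2.7.9a, Picard, RSEM and GRCh38, and the annotation release and RSEM version are not given in the sources used here. Of 60754 entries, 92 spike-in controls were at 0. X and Y rows of 45 pseudoautosomal genes were summed, and 58542 genes (96.6%) were placed in GENCODE v29 by identifier without version.

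Expected counts were rounded and tested in edgeR 4.0.16 (R 4.3.3) with TMM, filterByExpr and the quasi-likelihood F test, with Benjamini-Hochberg adjustment over all genes tested and a threshold of 0.05, comparing KO and each clone with WT, and the clones with each other. Lengths are the union of annotated exons. The correlations used log2 CPM with a prior count of 2. The steps were tested on simulated counts, and replicates differed by more than sampling noise.

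Members and lists were chosen with earlier results of these data known. Named were all members and partner chains, the JAKs, and of other receptors and ligands at most 6 of each list, past the threshold in both clones with a mean of at least 1 CPM, of which 1 is not reported here. For each member past it in both clones, the 2 genes most alike were named. Alternatives were DESeq2 1.42.0 (size factors and Wald test), limma-voom (limma 3.58.1), other filters, no mitochondrial genes, a fit of 3 groups, the replicate number as a block and each library left out.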

Additional observations from a re-analysis of the deposited data

Results flagged for a closer look

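The clones differed from each other for 5 of 7 receptors (71.4%, against 63.7% of the 16335 genes tested, a share near the background), by a direct test of 11H1 versus 14B5, which also tests whether their differences from the shared WT libraries differ. By edgeR the log2 fold change was −1.19 for *LEPR*, −0.72 for *IL6R*, −0.26 for *CSF2RB*, −0.26 for *IL4R* and 0.57 for *CSF3R*. For *LEPR* the 2 clones lay on opposite sides of WT. For *IL6R*, *IL4R* and *CSF2RB* both lay below WT, with 11H1 lower in each of its 3 libraries than any 14B5 library. For *CSF3R*, both lay below WT and their libraries overlapped.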

How the results depend on the processing

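Calls for *EPOR*, *IL6ST*, *IL6R*, *IL4R* and *CSF3R* in KO and in each clone versus WT, for *LEPR* in each clone, and for *CSF2RB*, *IL6R*, *LEPR* and *IL4R* between the clones kept their direction and side of the threshold under every alternative run. The call for *CSF2RB* in 14B5 versus WT was lost in 10 of 16 (adjusted p = 0.0545 to 0.213 in those 10, by edgeR or DESeq2), and that in KO versus WT was gained in 5 of 19, and *LEPR* was called in KO versus WT in 1 of 19. The call for *CSF3R* between the clones was lost in 5 of 16, and one for *EPOR* was gained in 2 of 16. The difference of *IL6ST* between the clones ran from −0.025 to 0.085 with a library left out, and was −0.025 without 14B5 replicate 3. The cause of these shifts was not tested.

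With the longest transcript as length, WT levels per kb were 20.6 (*EPOR*), 0.439 (*CSF3R*), 11.8 (*LEPR*), 11.3 (*IL4R*) and 0.0124 (*IL7R*), and the order of the 9 receptors was as before. In the sample names, same-numbered libraries are linked by number alone. Their deviations from group means correlated at −0.145 to 0.0582, which with so few libraries cannot tell whether they shared a preparation. With a replicate block, 5 receptors passed in KO versus WT, 7 in 11H1, 6 in 14B5 (*CSF2RB* at an adjusted p of 0.108 in edgeR) and 5 between the clones. Pseudoautosomal rows as deposited, and *LEPR* summed with *LEPROT*, were added after seeing the data and changed no call of a member. None of the 9 receptors is pseudoautosomal, so the first of these could hardly move their calls. *CSF2RA* and *IL3RA*, which are pseudoautosomal, were not tested again with rows as deposited. *CSF3R*, *IL3RA*, *IL5RA* and *IL11RA* rest on few counts, which limits their precision.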
